A study of Mus musculus with 2 samples.

Results

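Accessibility of chromatin was described at 10 genes that build triglyceride, coat the lipid droplets in which it is stored, or release fatty acids from it: *Gpam*, *Lpin1*, *Lpin2*, *Dgat1*, *Dgat2*, *Pparg*, *Plin2*, *Plin5*, *Cideb* and *Pnpla2*. The genes were chosen by name, and every distinct ATAC-seq region whose closest transcription start site (TSS) belonged to one of them was taken. This gave 60 of 69549 regions, of which 12 of 14387 were promoter regions, with their centre within 1 kb of the TSS, and 48 of 55162 lay farther away. All 10 genes had at least 1 promoter region, out of 27433 genes to which the table assigns a region.

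ATAC-seq counts the fragments that the Tn5 transposase cuts out of open chromatin. It was used to ask how the deletion of *Mettl3* in hepatocytes alters open chromatin in the liver. METTL3 is the catalytic subunit of the complex that writes m6A on RNA. The 2 libraries came from C57BL/6 mice of 8 weeks on normal chow, each pooled from the livers of 4 mice. Mice of both groups, *Mettl3* flox/flox and *Mettl3*-HKO, carried *Mettl3* alleles flanked by loxP sites, and the *Mettl3*-HKO mice (*Mettl3* flox/flox *Alb-Cre*+/-) also carried Cre under the albumin promoter. *Alb-Cre* acts in hepatocytes, so other liver cells of these mice are taken to have kept *Mettl3*, which was not measured here. The presence of Cre and the loss of *Mettl3* cannot be told apart. Since each group is a single pooled library, the spread between mice is unknown, no test across mice was possible, and every comparison is of 1 library with the other.

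In the glycerol phosphate pathway, GPAM attaches the first fatty acid to glycerol 3-phosphate, the lipins LPIN1 and LPIN2 turn phosphatidic acid into diacylglycerol, and the acyltransferases DGAT1 and DGAT2 add the last fatty acid. Triglyceride is stored in droplets coated by perilipins such as PLIN2 and PLIN5, CIDEB takes part in droplet growth and in the lipidation of very-low-density lipoprotein, and the lipase PNPLA2 (ATGL) starts the breakdown of the stored fat. PPARG is a nuclear receptor that drives fat storage, low in normal liver and high in adipose tissue.

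Promoter sequences of 5 members are shown because their regions mark the range of the results, from the lower reads at *Plin5*, *Lpin2* and *Plin2* through *Cideb*, close to the typical promoter, to the higher reads at the internal start of *Pparg*. They are the bases upstream of a RefSeq TSS on GRCm38.p6, 5′ to 3′ on the strand of the gene, outside annotated exons, and capitals mark the motifs searched for on both strands. The *Lpin2* sequence is chr17:71183282-71183531 (plus strand), that of *Plin5* chr17:56117607-56117798 (minus), that of *Plin2* chr4:86670218-86670309 (minus), that of *Cideb* chr14:55758459-55758674 (minus) and that of the internal *Pparg* start chr6:115421816-115422065 (plus).
Lpin2: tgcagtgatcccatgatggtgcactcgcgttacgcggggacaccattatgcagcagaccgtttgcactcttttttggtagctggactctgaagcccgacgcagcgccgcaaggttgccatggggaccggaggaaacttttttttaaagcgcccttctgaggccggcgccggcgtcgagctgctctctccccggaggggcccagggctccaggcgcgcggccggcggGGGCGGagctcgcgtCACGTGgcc
Plin5: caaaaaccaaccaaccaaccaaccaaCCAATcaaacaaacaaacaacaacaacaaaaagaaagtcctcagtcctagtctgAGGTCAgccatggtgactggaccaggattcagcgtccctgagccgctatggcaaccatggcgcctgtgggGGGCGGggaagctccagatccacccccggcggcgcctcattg
Plin2: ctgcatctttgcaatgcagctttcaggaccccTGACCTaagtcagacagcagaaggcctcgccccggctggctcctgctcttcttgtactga
Cideb: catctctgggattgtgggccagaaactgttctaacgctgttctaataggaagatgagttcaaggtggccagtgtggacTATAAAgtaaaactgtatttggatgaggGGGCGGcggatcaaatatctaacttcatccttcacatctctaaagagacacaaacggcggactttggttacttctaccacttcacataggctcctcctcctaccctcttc
Pparg, internal start: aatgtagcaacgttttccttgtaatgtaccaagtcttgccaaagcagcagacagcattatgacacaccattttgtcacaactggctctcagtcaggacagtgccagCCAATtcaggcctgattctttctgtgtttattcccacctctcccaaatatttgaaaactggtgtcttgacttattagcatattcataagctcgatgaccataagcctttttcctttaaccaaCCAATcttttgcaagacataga
All bases of the *Lpin2*, *Cideb* and *Pparg* sequences lay inside an ATAC-seq region, against 161 of 192 for *Plin5* and 33 of 92 for *Plin2*.

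The capitals mark the hexamer AGGTCA bound by nuclear receptors (TGACCT on the other strand), the E box CACGTG, the CCAAT box, the GC box GGGCGG and the TATA box TATAAA. Over the 250 bases upstream of the start, AGGTCA was found in 6 of the 14 RefSeq promoter entries that matched 8 members, against 14% of 32851 RefSeq promoters. *Gpam*, *Lpin1*, *Plin2*, *Plin5* and *Pparg* held it. An exact direct repeat of AGGTCA with 1 base between the copies (DR1), a form of the element to which PPARs bind, was found in 0 of the 14. Only 0.0335% of all promoters held it, so 0 of 14 cannot tell the members from other promoters. Inexact copies were not searched for, and any DR1 also counts as the hexamer. The GC box was in 9 of the 14 entries (32.7% of all), the CCAAT box in 6 (33.8%), the TATA box in 2 (12.4%) and the E box in 1 (6.02%), that of *Lpin2*. These matches are descriptions of letters and not of binding. *Dgat1* and *Dgat2* had no entry.

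The whole libraries set the scale for what follows. The *Mettl3* flox/flox library held 52826262 reads and the *Mettl3*-HKO library 58038286, totals recovered from the RPM values, but 31.7% of the first and 22.3% of the second fell in the regions. Ratios are given as log2 of *Mettl3*-HKO over *Mettl3* flox/flox reads after scaling by the library totals (RPM), and their median was −0.38 over all regions, −0.56 over promoter regions and −0.27 over the rest, so each member is read against the median of its class. Intervals are 95% Clopper-Pearson intervals that cover counting error only. The promoter region of *Mettl3* itself, centred in exon 1, had 566 and 392 counts (−0.66), which does not check the deletion, since reads there can come from intact and recombined alleles alike. Promoter regions were present for 8 of 8 hepatocyte markers. Their summed signal was 82.1 RPM in the *Mettl3* flox/flox and 56.5 RPM in the *Mettl3*-HKO library.

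Promoters of the triglyceride and droplet genes as a group had fewer reads in the *Mettl3*-HKO library, beyond the shift of the typical promoter. The *Pparg* region and the second *Lpin1* region lay above that shift. Counts of all 12 promoter regions summed to 8738 (*Mettl3* flox/flox) and 5596 (*Mettl3*-HKO), and the summed log2 ratio was −0.78 (−0.83 to −0.73). The median of the 12 regions was −0.80, against −0.56 for all promoter regions and −0.62 for the 8438 promoter regions in the members' range of signal (2.71 to 20.2 RPM). That range is wide and is not a match for signal. The strongest 10% of promoter regions had a median of −0.65. The log2 ratio was below 0 in 11 of the 12, against 83.9% of all promoter regions, but those of *Gpam*, *Cideb* and the second *Lpin1* region rose above 0 with other scalings. None fell or rose 2-fold, against 16.3% of promoter regions at least 2-fold lower and 4.07% at least 2-fold higher. With ratios centred on the median of all regions these shares became 5% and 6.9%, and still 0 of the 12 passed either. The interval lay wholly below the promoter median in 7 of 12 regions (29.5% of all promoter regions) and wholly above it in 2 of 12 (29%). Fewer hepatocytes and less open chromatin per hepatocyte cannot be told apart in such libraries.

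**Figure D1:**
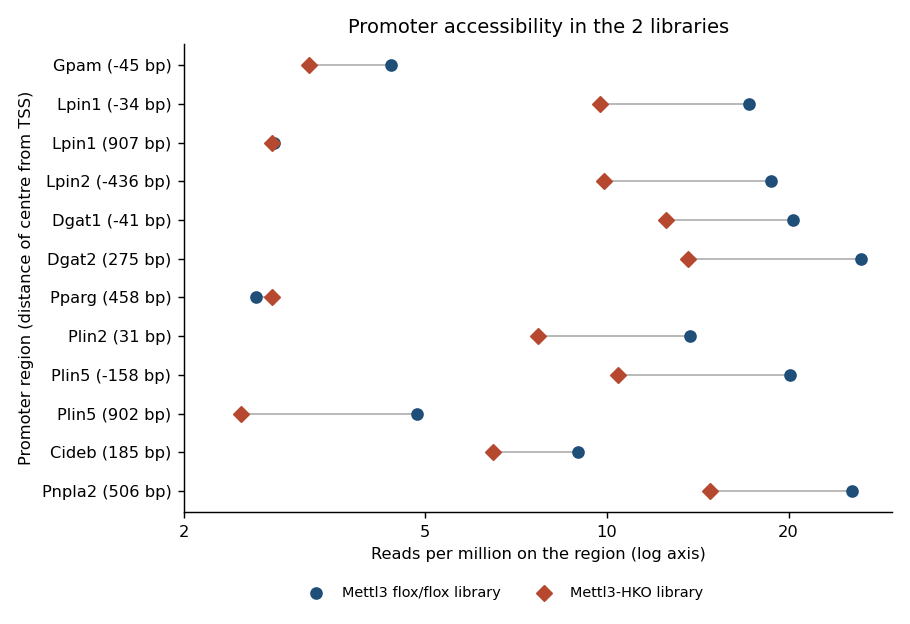
Signal in RPM on each of the 12 promoter regions in the *Mettl3* flox/flox library (circles) and the *Mettl3*-HKO library (diamonds), on a log axis, with 1 library per group and no error bar. *Dgat2* went from 26.4 to 13.6 RPM, whereas the points of *Pparg* (2.63 and 2.79 RPM) and of the second *Lpin1* region (2.82 and 2.79 RPM) lie close together.

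Among the 5 enzymes of synthesis in the set, *Dgat2* had the lowest promoter ratio. Its region (chr7:99181662-99183226, centred in exon 1) went from 1393 counts (*Mettl3* flox/flox) to 791 (*Mettl3*-HKO), or −0.95 on the log2 scale (−1.08 to −0.83), and 18.8% of promoter regions were lower. The promoter of the second acyltransferase, *Dgat1* (chr15:76511471-76512514), had 1073 and 728 counts and a log2 ratio of −0.69 (−0.83 to −0.56), an interval that reached the promoter median. The intervals of both acyltransferases overlapped only at their ends, at −0.83.

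The lipin promoters were close to that of *Dgat2*. *Lpin2* (chr17:71183200-71183885, over the RefSeq start at 71183532) had 988 and 574 counts, or −0.92 (−1.07 to −0.77). The region over the annotated start of *Lpin1* (chr12:16589385-16590225) had 908 and 564 counts, or −0.82 (−0.98 to −0.67). A second, narrower *Lpin1* region 907 bp into the gene, in intron 1 (chr12:16588738-16588989), behaved differently: it had 148 and 161 counts, or −0.02 (−0.35 to 0.32), and a peak was called there in the *Mettl3*-HKO library only. The intervals of the *Lpin1* regions do not overlap, but the second region is in the table through the library that favours its higher ratio.

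*Gpam*, the first enzyme of the pathway, lay near the typical promoter. Its region (chr19:55099209-55099784) had 231 and 186 counts, or −0.45 (−0.73 to −0.16), and 60.6% of promoter regions were lower. RefSeq gives *Gpam* a second start at 55127238, far upstream on chromosome 19, which lies in another ATAC-seq region (chr19:55126905-55127510) with 259 and 203 counts, or −0.49 (−0.76 to −0.22). The ratios at the starts of *Gpam* differed by −0.04 (−0.42 to 0.35), within counting error.

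The *Plin5* promoter ratios were as low as that of *Dgat2*, and *Plin2* was close to *Lpin1*. At *Plin5*, which ties droplets to mitochondria, the region over the start (chr17:56117147-56117767) had 1060 and 605 counts, or −0.94 (−1.09 to −0.80). A region in exon 3 (chr17:56116269-56116524), 902 bp past the start, had 256 and 143 counts, or −0.97 (−1.28 to −0.68). *Plin2*, whose product coats most droplets of hepatocytes, had 725 and 446 counts over its first exon (chr4:86669808-86670250), or −0.84 (−1.01 to −0.66). All these intervals lay below the promoter median.

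Droplet growth and lipolysis were represented by 1 promoter each. *Cideb* (chr14:55757699-55758847) had 472 and 376 counts, or −0.46 (−0.66 to −0.27), an interval that holds the promoter median. *Pnpla2* (chr7:141454994-141456416, centred in intron 1) had 1346 and 861 counts, or −0.78 (−0.91 to −0.66), below that median.

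*Pparg* and the second *Lpin1* region were the 2 with an interval wholly above the promoter median, as in 29% of all promoter regions. The *Pparg* promoter region (chr6:115360785-115362034, centred in intron 1, 458 bp past the TSS) had 138 counts (*Mettl3* flox/flox) and 161 (*Mettl3*-HKO), or 0.09 (−0.25 to 0.43), and 85.9% of promoter regions were lower. The interval lies above the promoter median and includes 0, but it lay wholly above 0 under the other 3 scalings, at 0.46 (0.13 to 0.80) centred on all regions, 0.73 (0.40 to 1.07) on the strongest promoters and 0.60 (0.26 to 0.94) on reads in regions. By read density per base it was also the lowest of the 12 promoter regions in both libraries.

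**Figure D2:**
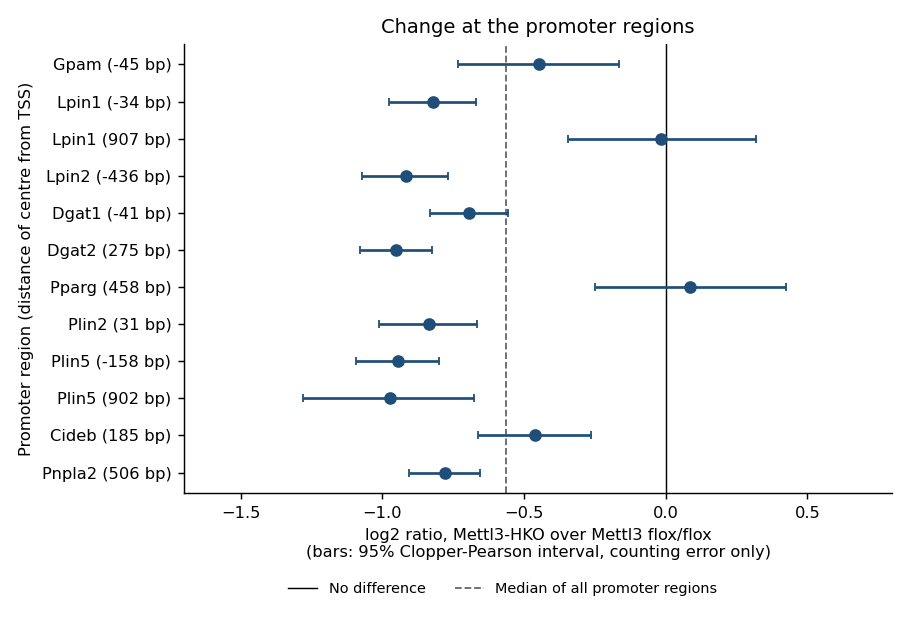
Log2 ratio (*Mettl3*-HKO over *Mettl3* flox/flox) of each of the 12 promoter regions, with its 95% interval for counting error, beside the line of no difference and the median of all promoter regions (−0.56, dashed). *Pparg* and the second *Lpin1* region sit right of the dashed line with their intervals, *Gpam*, *Cideb* and *Dgat1* overlap it, and the other 7 lie left of it. The *Gpam* and *Cideb* points lie above 0 when the libraries are scaled to their reads in regions or on the strongest promoters.

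The promoters also differed in signal per base. Fold enrichment, the read density of a region relative to that of the whole genome, was 88.3 at the start of *Plin5*, 84.7 at *Plin2* and 74.5 at *Lpin2* in the *Mettl3* flox/flox library, against a median of 25.8 for promoter regions. It was 20.8 at *Gpam*, 21.3 at *Cideb* and 5.75 at *Pparg*. The 4 least enriched promoter regions in that library (*Pparg*, *Gpam*, *Cideb* and the second *Lpin1* region, at 30.6) were also the 4 with the highest ratios, although the ratio has that same library in its denominator. In the *Mettl3*-HKO library this match did not hold, since the 4 least enriched were *Pparg* (6.10), *Gpam* (15.3), *Cideb* (15.4) and *Dgat2* (23.8), the last with a ratio of −0.95. The same genes led there, with 47.5 for *Plin2*, 45.9 for *Plin5* and 39.4 for *Lpin2*. The starts of the perilipin genes were thus the most enriched of the 12 promoter regions in both libraries.

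Beyond 1 kb from the TSS, regions of *Plin2*, *Gpam* and *Dgat2* mostly had fewer reads in the *Mettl3*-HKO library, those of *Pparg* had more, and those of *Lpin2* went both ways. *Dgat1*, *Plin5* and *Cideb* had no such region. The 48 regions held 14146 counts (*Mettl3* flox/flox) and 10434 (*Mettl3*-HKO), with a summed log2 ratio of −0.57 (−0.61 to −0.54) that came to 0.07 when the libraries were centred on the strongest promoters. Their median was −0.74, against −0.27 for all regions beyond 1 kb, and 38 of 48 were below 0, against 59.8%. At least 2-fold lower were 12 of 48 (18.8% of all such regions), and at least 2-fold higher were 4 of 48 (15.6%). The split depends on the scaling: centred on the median of all regions, 5 were lower (8.65%) and 7 higher (23.5%). The interval was wholly below the class median in 26 of 48 (31.1%) and wholly above it in 8 of 48 (33.1%). A peak was called in both libraries in 27 of the 48 regions, in *Mettl3* flox/flox only in 14 (19.1% of all regions beyond 1 kb) and in *Mettl3*-HKO only in 7 (24.9%). A region with a peak in 1 library only is in the table because of that library, which favours a ratio in its direction. Of the 27 regions with a peak in both, 3 were at least 2-fold lower (15.7% of 30929 such regions) and 0 higher (3.76%), and their median was −0.56, against −0.40.

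A comparison free of the scaling sets each distal region against the strongest promoter region of its own gene, with a normal 95% interval of the difference of their log2 ratios. It was chosen after the values were seen. By it, 10 of 48 regions had a lower ratio than their promoter (18% of 21626 regions with such a promoter) and 17 of 48 a higher one (39%), so the members' shares were near those of all genes.

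*Plin2* had lower reads throughout. All 8 of its regions beyond 1 kb were below the class median, from −1.88 to −0.84, and 6 of the 8 were at least 2-fold lower (18.8% of all regions beyond 1 kb), of which 1 had a peak in both libraries. The strongest, at −19854 bp (negative distances lie upstream of the TSS; chr4:86689181-86690649), had 1644 counts in the *Mettl3* flox/flox and 1007 in the *Mettl3*-HKO library, or −0.84 (−0.96 to −0.73), next to −0.84 at the promoter. The region at −25164 bp had 196 and 58 counts (−1.88, −2.34 to −1.46), that at −11951 bp 78 and 27 (−1.63), and that at −26962 bp 89 and 32 (−1.58). Past the 3′ end of the gene, the region at 15151 bp had 126 and 48 counts (−1.51) and that at 14516 bp 128 and 61 (−1.19). The pair just upstream of the promoter had 623 and 324 counts at −1042 bp (−1.08) and 544 and 324 at −1927 bp (−0.88). The 8 regions summed to 3428 and 1881 counts, or −1.001 (−1.08 to −0.92). All 5 of the regions at −26962, −25164, −11951, 14516 and 15151 bp had a peak in the *Mettl3* flox/flox library only. The 3 *Plin2* regions with a peak in both libraries, at −19854, −1927 and −1042 bp, did not differ from the *Plin2* promoter beyond the interval of the difference.

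*Gpam* had a lower ratio at some distal regions than at its start. Of 11 regions beyond 1 kb 10 were below 0 (59.8% of all such regions). Together the 11 went from 2047 to 1345 counts, or −0.74 (−0.84 to −0.64), an interval that overlaps that of the promoter. The strongest, at −40122 bp (chr19:55139270-55139878), had 430 and 254 counts (−0.89, −1.12 to −0.67). At least 2-fold lower were 4 of the 11 (18.8% of all regions beyond 1 kb). These were in intron 3 at 3633 bp with 131 and 63 counts (−1.18), at −16305 bp with 76 and 37 (−1.15), at −11109 bp with 282 and 145 (−1.09) and in intron 4 at 7366 bp with 227 and 123 (−1.01). Those at −16305 and 3633 bp had a peak in the *Mettl3* flox/flox library only. Those at −40122, −11109 and 7366 bp had a peak in both, and each was lower than the *Gpam* promoter beyond the interval of the difference. The exception was at −22608 bp, with 97 and 112 counts, or 0.07 (−0.33 to 0.48).

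*Dgat2* and *Pnpla2* had few regions beyond 1 kb that stood apart from their promoter. Of the 6 regions assigned to *Dgat2*, 4 in introns 1 and 2 had ratios between −0.89 and −0.83, and the strongest of these, at 14550 bp (chr7:99167934-99168404), had 507 and 314 counts (−0.83, −1.03 to −0.62). Upstream, the region at −6100 bp had 91 and 51 counts (−0.96) and that at −8844 bp 159 and 152, or −0.20 (−0.53 to 0.13), the 1 of these 6 with a ratio above that of the promoter beyond the interval. The single *Pnpla2* region beyond 1 kb, in intron 1 at 1764 bp (chr7:141456827-141457099), had 220 and 119 counts, or −1.02 (−1.36 to −0.69), with a difference of −0.24 from its promoter (−0.59 to 0.10) and a peak in the *Mettl3* flox/flox library only.

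**Figure D3:**
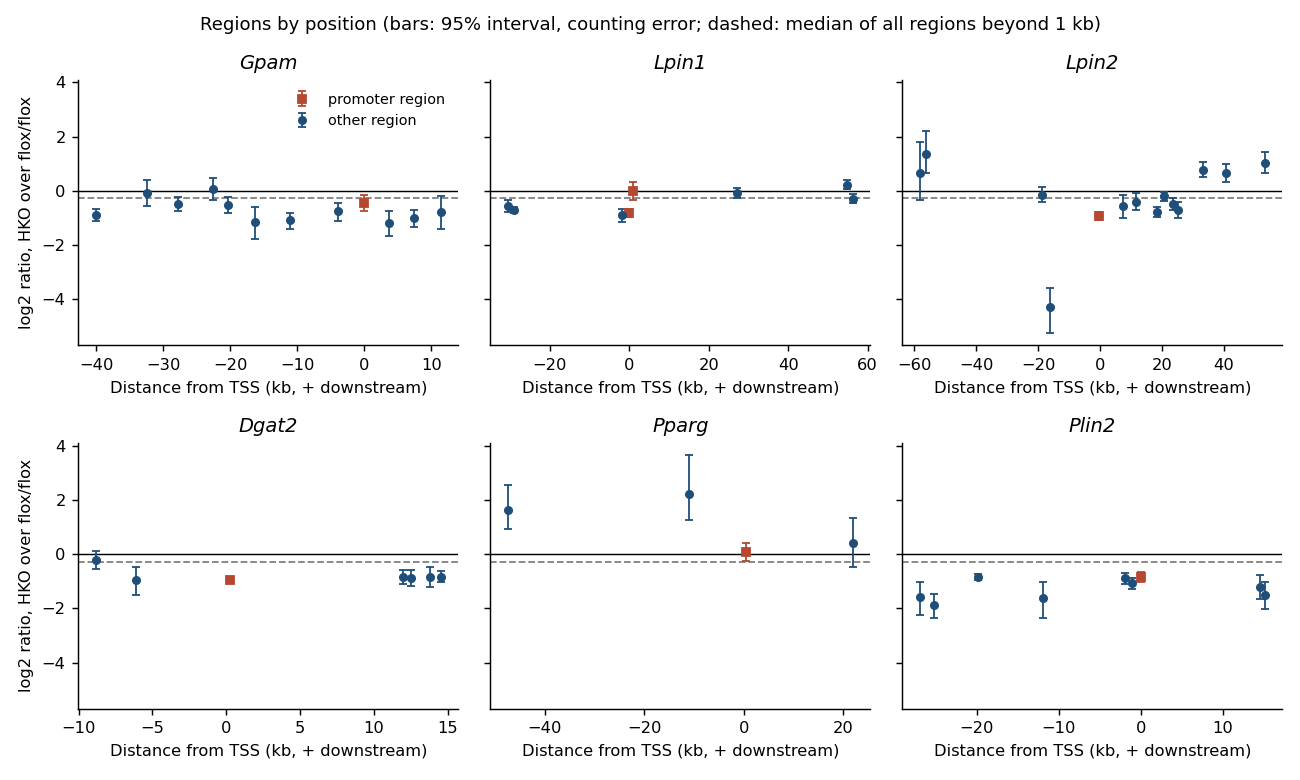
Log2 ratio of every region of the 6 members with 3 or more distal regions, against its distance from the TSS in kb (squares, promoter regions; circles, other regions; bars, 95% interval for counting error; dashed line, median of all regions beyond 1 kb, −0.27). All *Plin2* circles lie under the dashed line, all *Pparg* circles above 0, and 1 *Lpin2* circle lies at −4.27.

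*Lpin2* held the most extreme region of the set. At −16186 bp (chr17:71167678-71167907), in the last intron of the annotated gene ENSMUSG00000097625, the reads went from 263 counts (*Mettl3* flox/flox) to 14 (*Mettl3*-HKO), a log2 ratio of −4.27 (−5.26 to −3.59), or 19.3-fold lower. A peak was called in the first library only, and a difference in genotype or mapping between the pooled mice cannot be told apart here from the deletion of *Mettl3*. As low or lower were 27 of the 55162 regions beyond 1 kb, this one included. Its neighbour at −18775 bp (chr17:71164976-71165431) had 216 and 216 counts, or −0.14 (−0.41 to 0.14), an interval that includes 0.

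In the body of *Lpin2* the ratio changed with position. In intron 1 the strongest region, at 18330 bp (chr17:71202081-71202536), had 604 and 385 counts (−0.78, −0.97 to −0.60), and all 6 intron 1 regions were below 0. The region at 20612 bp over the RefSeq start at 71204654 (chr17:71204341-71204841) had 553 and 529 counts, or −0.20 (−0.37 to −0.03), and its ratio exceeded that of the upstream promoter by 0.72 (0.49 to 0.95). Farther into the gene the reads were higher in the *Mettl3*-HKO library. The region in intron 2 at 33378 bp had 172 and 323 counts (0.77, 0.50 to 1.05), that in intron 3 at 40686 bp 128 and 221 (0.65, 0.33 to 0.98), and that at intron 8 at 53367 bp 78 and 177 (1.04, 0.65 to 1.45). Far upstream, at −56254 bp, 20 and 58 counts gave 1.35 (0.65 to 2.21). The regions at 53367 and −56254 bp had a peak in the *Mettl3*-HKO library only, those at 33378 and 40686 bp in both. Of the 13 *Lpin2* regions beyond 1 kb 8 were below 0, near the share of all such regions (59.8%), and 5 above. Those at 33378 and 40686 bp exceeded the *Lpin2* promoter by 1.69 and 1.57.

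*Lpin1* had a mixed but smaller pattern. Its strongest region, at −29065 bp (chr12:16618338-16619333), had 1365 and 919 counts (−0.71, −0.83 to −0.58), and that at −1892 bp was lowest with 350 and 205 (−0.90, −1.16 to −0.65). Of 3 regions in the later introns and at the end of the gene, none was 2-fold changed. That at 27114 bp had 472 and 496 counts (−0.06), that over the end of the last exon at 54742 bp (chr12:16534365-16535692) 570 and 730 (0.22, 0.06 to 0.38), and that at 56366 bp 708 and 638 (−0.29). The region at 54742 bp had a peak in the *Mettl3*-HKO library only. Those at 27114 and 56366 bp had a peak in both, and exceeded the promoter by 0.76 and 0.54, beyond the interval of the difference. RefSeq also gives *Lpin1* a start at 16610966, which lay in no region.

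*Pparg* had ratios above 0 at each of its regions beyond 1 kb, whereas 59.8% of all such regions were below 0. At least 2-fold higher were 2 of the 3 (15.6% of all such regions). At −47498 bp there were 18 and 64 counts (1.64, 0.92 to 2.54), at −10943 bp 8 and 45 (2.22, 1.26 to 3.65), and in intron 1 at 21977 bp 19 and 28 (0.40, −0.47 to 1.35). All 3 are weak regions with a peak in the *Mettl3*-HKO library only (24.9% of all regions beyond 1 kb). They entered the table through the library in which they are higher, and their ratios are given as a description.

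The table assigns regions to the closest TSS, so 8 regions in the body of *Pparg* belong to the start of another gene, ENSMUSG00000108141. They were examined after the *Pparg* values were seen. Their counts were 772 (*Mettl3* flox/flox) and 1398 (*Mettl3*-HKO), or 0.72 (0.59 to 0.85), and all 8 ratios were above 0. Below 0 were 59.8% of all regions beyond 1 kb and 83.9% of all promoter regions. The second share is given because chr6:115465474-115466278 (174 and 293 counts, 0.61) is centred at −885 bp from the other start. It is thus a promoter region of that gene, and the rest lie beyond 1 kb. At least 2-fold higher were 3 of the 8 (15.6% of all regions beyond 1 kb), none of them this promoter region. The region in intron 2 over the internal RefSeq start of *Pparg* at 115422066 (chr6:115421606-115422260), whose upstream bases are printed above, had 133 and 328 counts, or 1.16 (0.87 to 1.47). It had a peak in both libraries. Others at least 2-fold higher, with a peak in the *Mettl3*-HKO library only, were also in intron 2 (chr6:115434717-115435121, 16 and 49 counts, 1.42) and in the last intron (chr6:115480028-115480934, 55 and 166 counts, 1.44). The remaining 5 had ratios from 0.22 to 0.70. The 5 body regions with a peak in both libraries, a choice made after seeing the data, held 636 and 1066 counts, or 0.61 (0.47 to 0.75), and 1 of them was at least 2-fold higher (3.76% of all regions beyond 1 kb with a peak in both). The promoter region of the other gene is 1 of these 5, although that share covers regions beyond 1 kb only. In contrast, the 3 body regions of *Dgat2* assigned elsewhere held 1297 and 983 counts, or −0.54 (−0.66 to −0.41), with a median of −0.87, and none was above 0. At least 2-fold lower was 1 of the 3 (18.8% of all regions beyond 1 kb), with 201 and 93 counts (−1.24) and a peak in the *Mettl3* flox/flox library only. The strongest of the 3, in intron 4 (chr7:99161473-99162451), had 763 and 690 counts, or −0.28 (−0.43 to −0.13), an interval above that of the *Dgat2* promoter.

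**Figure D4:**
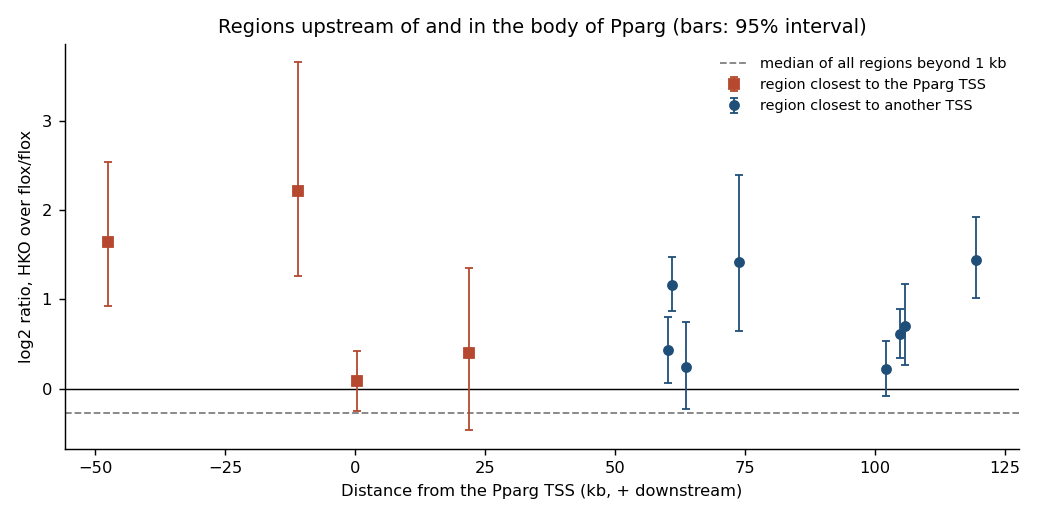
Log2 ratio of the regions upstream of and within *Pparg* against distance from its TSS in kb (squares, closest to the *Pparg* TSS; circles, in the gene but closest to another TSS; bars, 95% interval for counting error; dashed line, −0.27, the median of all regions beyond 1 kb). All 12 points are above 0, and the interval of 4 of them reaches below 0.

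Promoter regions of endothelial and macrophage markers had ratios above 0, but they are weak regions. Their *Mettl3* flox/flox counts ran from 11 (*Tek*) to 48 (*Clec4g*) and from 8 (*C1qa*) to 45 (a *Cd14* region). Weak regions can be in the table because of the library in which they are higher. At least 2-fold higher were 5 of 7 endothelial and 2 of 3 macrophage regions, against 4.07% of all promoter regions. Those of endothelial markers (7 of 8 genes, none for *Pecam1*) summed to 3.03 RPM (*Mettl3* flox/flox) and 7.01 RPM (*Mettl3*-HKO), and their log2 ratios ran from 0.14 (*Eng*) to 1.78 (*Stab2*) around a median of 1.60. Those of macrophage markers (2 of 8 genes, none for *Clec4f*, *Csf1r* or *Adgre1*) summed to 1.65 and 3.24 RPM, from 0.53 at a *Cd14* region to 2.05 at *C1qa*. Over all regions of a list, endothelial markers went from 1736 to 2399 counts (0.33 summed over 31 regions, with a median of 1.16). Macrophage markers went from 966 to 714 counts, and their sum (−0.57) and their median (0.51) over 12 regions differ in sign. Hepatocyte markers ranged from −1.08 (*Ttr*) to 0.02 (*Alb*), with a median of −0.59. Of the 6 adipocyte markers, *Adipoq*, *Lep*, *Cfd*, *Retn* and *Fabp4* had no promoter region, and *Slc7a10* had 61 and 34 counts (−0.96). None of the 8 lymphocyte genes had a promoter region, and stellate cell genes (2 of 8) went from 13.8 to 3.05 RPM with *Reln* at −2.51 and *Col1a1* at 0.08. The fall was that of the single *Reln* region (13.1 and 2.29 RPM), whereas *Col1a1* had 0.72 and 0.76 RPM. Over all 5 regions of the stellate list the summed ratio (−1.28) and the median (0.15) differ in sign. The part of other cell types in the *Pparg* values was not tested.

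Other genes of the pathway were taken from 3 lists. Of 13 further genes of glycerolipid synthesis 12 had a promoter region (not *Gpat4*), and of their 13 regions 3 were at least 2-fold lower (16.3% of all promoter regions) and 1 higher (4.07%). *Mogat1*, which makes diacylglycerol from monoacylglycerol, had 359 and 137 counts (−1.52), *Gpd1*, which supplies glycerol 3-phosphate, 237 and 106 (−1.29), and a second region of the acyltransferase *Agpat2* 203 and 100 (−1.15). *Mogat2*, with the same activity as *Mogat1*, went the other way from 27 to 79 counts, or 1.38 (0.77 to 2.10). The median of this list was −0.52, near the −0.56 of all promoter regions.

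Of 14 further genes of the droplet coat, assembly and growth 12 had a promoter region (not *Plin1* or *Fitm1*), with a median of −0.56, and of the 12 regions 2 were at least 2-fold lower (16.3% of all promoter regions) and 0 higher (4.07%). *Plin4*, a perilipin whose region (chr17:56108577-56110109) lies beside the *Plin5* gene (chr17:56111607-56117298), had 1752 and 486 counts, or −1.98 (−2.13 to −1.84). That was lower than any promoter of the 10 genes described above, and only 0.67% of promoter regions were lower. *Ldah*, a droplet-associated hydrolase, had 541 and 273 counts (−1.12). *Cidec*, which joins droplets into larger ones, had the highest ratio, with 270 and 301 counts or 0.02 (−0.22 to 0.26).

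The genes of lipolysis and its regulators had the lowest median, −0.84, over 11 promoter regions of 8 of 10 genes (none for *Lipe* or *Pnpla3*). At least 2-fold lower were 4 of the 11 (16.3% of all promoter regions) and 0 were higher (4.07%). *Mgll* and *Abhd6*, which both hydrolyse monoacylglycerol, had 410 and 123 counts (−1.86) and 351 and 128 (−1.58). *G0s2*, an inhibitor of PNPLA2, had 426 and 141 counts at its start (−1.72) and 102 and 48 in a second region (−1.21). *Abhd5*, the activator of PNPLA2, had the highest ratio in its upstream region, with 58 and 79 counts or 0.30 (−0.20 to 0.82), whereas the region over its start had 1006 and 618 (−0.84). The inhibitor and the activator of the lipase thus differed at their starts, with intervals of −2.02 to −1.45 and −0.99 to −0.69. Over all 3 lists, 9 of 36 regions were at least 2-fold lower (16.3% of all promoter regions) and 1 higher (4.07%), and the median was −0.61.

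**Figure D5:**
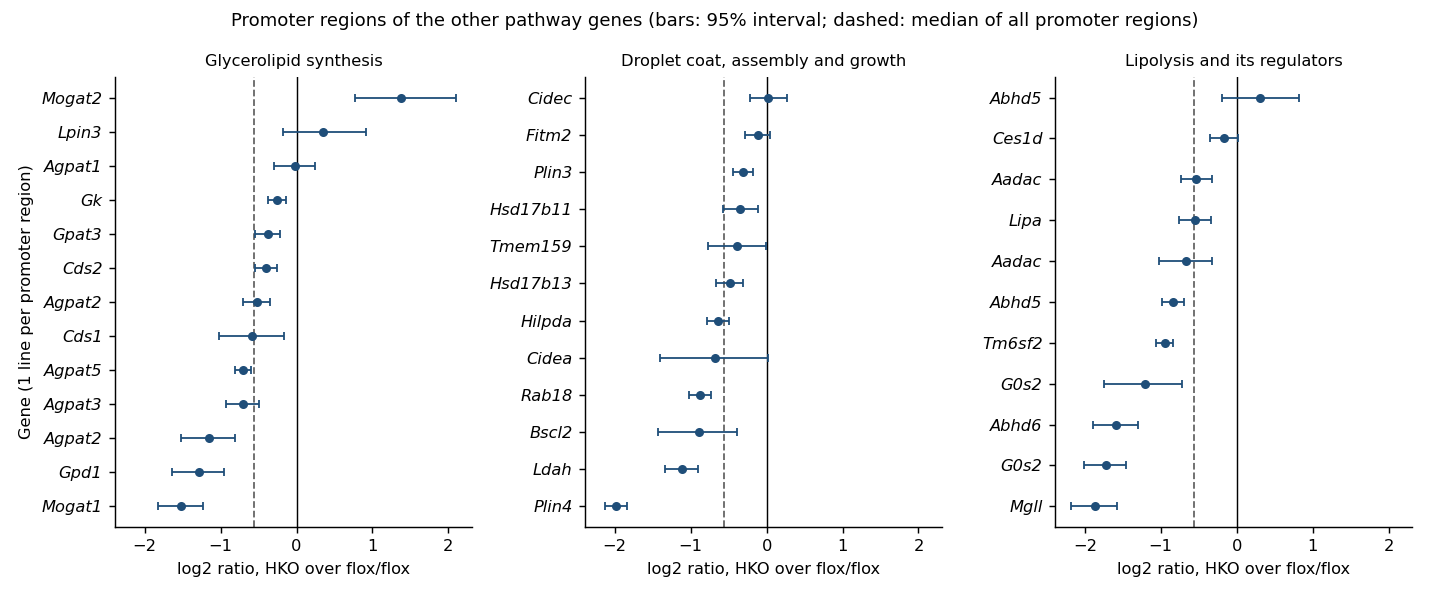
Log2 ratio of the promoter regions of the other pathway genes, 1 line per region, in 3 panels by list (bars, 95% interval for counting error; dashed line, median of all promoter regions, −0.56). *Plin4*, *Mgll* and *G0s2* lie farthest left, and *Mogat2* at 1.38 lies farthest right.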

How the data were processed

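The ATAC-seq libraries of *Mettl3* flox/flox and *Mettl3*-HKO livers, 1 each, were analysed. The authors trimmed adaptors with skewer, aligned with BWA to GRCm38, kept properly paired, non-mitochondrial reads, and called peaks per library with MACS2, all duplicates kept. Counting on merged regions and any shift for the Tn5 cut are not given in the sources used here. The authors deposited a raw count per region and library, the RPM (count plus 1, scaled by the library's total), a fold enrichment (ratio of a region's read density to that of the whole genome) and a flag for a peak in each library. Their log2 fold change column holds their own comparison and was not used. Other assays of the study were not used here.

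Of 74821 rows 5272 repeated a region and were dropped. Log2 ratios of count plus 1 over the library totals (recovered from the RPM values) were computed with 95% Clopper-Pearson intervals, obtained from the *Mettl3*-HKO share of a region's counts. These cover counting error only, and duplicate reads are not independent molecules. Called regions passed 2-fold, or had an interval wholly on 1 side of the median of their class. Median counts per region were 85 (*Mettl3* flox/flox) and 81 (*Mettl3*-HKO), so weak regions have wide intervals. Named are all 10 genes with every promoter region, and their strongest, highest, lowest and 2-fold changed regions beyond 1 kb. Of the pathway promoters, the highest, the lowest and the 2-fold changed of each list are named, and the start of *Abhd5* beside its upstream region. Some regions outside these rules (*Lpin1*, *Lpin2*, *Dgat2*, *Plin2* and *Gpam* regions, and the bodies of *Pparg* and *Dgat2*) are given too and were chosen after their values were seen. Members and lists were chosen with earlier results of these data known. Promoter sequences came from RefSeq (GRCm38.p6), with 14 entries for 8 of the 10 genes. No library was left out, and 1 of the marker lists is not reported here. The computation was tested on simulated data and ran under scipy 1.17.1, numpy 2.4.6 and pandas 2.3.3 (Python 3.11.15), with plots by matplotlib 3.10.9. Alternatives covered scaling, filters on regions, the promoter window, the reads added and the fold.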

Additional observations from a re-analysis of the deposited data

How the results depend on the processing

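With 1 pooled library per group, no library could be left out. No paired analysis was possible because the groups share fewer than 2 replicate numbers. Summed and median ratios depended on the scaling. Centring on the median of all regions (a shift of −0.38 in log2), centring on the strongest 10% of promoter regions (−0.65) and scaling to the reads in regions (0.51 added) gave summed promoter ratios of −0.40, −0.13 and −0.27, in that order, and median promoter ratios of −0.42, −0.15 and −0.29. In the same order, regions beyond 1 kb had summed ratios of −0.20, 0.071 and −0.063, medians of −0.36, −0.091 and −0.23, with 5, 2 and 4 regions at least 2-fold lower and 7, 8 and 7 higher. Shares of all such regions were computed for the first scaling only (8.65% lower and 23.5% higher). The counts under the other scalings cannot be set against all regions. The pathway promoters had a median of −0.23 after centring on all regions. With a window of 2 kb, 2 promoter regions were at least 2-fold lower and the summed ratio beyond the window was −0.53. At 1.5-fold, 8 of 12 promoter regions were lower (47.8% of all promoter regions), and 26 of 48 regions beyond 1 kb were lower (36.5% of all) and 7 higher (24.3%). Keeping regions with a peak in both libraries left 3 lower and 0 higher beyond 1 kb, and keeping the upper 50% of signal left 1 higher. Of 70 alternatives for these summaries, 43 moved a value by less than its counting interval or a count by less than 1.5 times. Among single promoter regions, *Gpam* came to 0.20 and *Cideb* to 0.18 on the strongest promoters and to 0.06 and 0.05 on reads in regions, and the second *Lpin1* region to 0.36, 0.63 and 0.50 under the 3 scalings. *Pparg* came to 0.46, 0.73 and 0.60. These scalings add 1 constant to every ratio and cannot change the order of regions. Depth limits the weak regions: those of *Pparg* beyond 1 kb had 8 to 19 counts in the *Mettl3* flox/flox library. The difference in the share of reads in regions between libraries cannot be told apart from the groups.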
